A study of Danio rerio with 5 samples.

Results

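Described here are 10 zebrafish genes that write, erase or maintain methyl marks on histone H3 lysine 27 (H3K27) and on DNA: kdm6ba, kdm6bb, ezh2, eed, suz12a, suz12b, dnmt1, uhrf1, tet2 and tet3. They were chosen by gene name. Of the 10 names, 9 matched a row among the 31540 genes of the tables, and no row carries the name kdm6ba. A row listed as KDM6B is described below but not counted as a member. It lies near genes that also flank kdm6ba in a later gene list. RNA sequencing was done on caudal fin tissue, which grows back after the tail fin is cut, with 3 libraries labelled 24h and 2 labelled Control. The series text speaks of fins at 1 and 3 days after amputation, but what the Control fins are is not in the labels, so no direction in time is read from the difference between the groups. The labels used here give no strain, age, sex or number of fish, and no genetic change or drug, for either group.

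Polycomb repressive complex 2 (PRC2) joins the methyltransferase Ezh2 with the subunits Eed and Suz12 and places methyl groups on H3K27, which keeps genes silent. Kdm6 demethylases remove them, and a Kdm6b demethylase is known to be needed for fin regeneration in zebrafish. DNA methylation is copied onto new strands by Dnmt1, which Uhrf1 brings to replicating DNA, while Tet enzymes oxidise methylcytosine as a first step of its removal.

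The libraries held 14958600 to 22341452 gene reads in the 24h group and 15448344 and 18887167 in the Control group, at least 94.0% of them unique. In no pair of libraries did the counts agree within sampling noise (lowest chi-square over its degrees of freedom 15.2). Skin marker genes were abundant in both groups, with a summed level of 29616 to 40234 CPM (the read count scaled to a common library size with TMM factors) in 24h fins, against 35825 and 41117 CPM in Control fins. Of the 8 skin markers tested in edgeR, 2 were higher and 2 lower in 24h fins (adjusted p under 0.05). Cell type markers differed between the groups: 4 of 5 blastema markers were higher in 24h fins, and 4 of 5 osteoblast, 4 of 5 endothelial and all 3 melanophore markers that were measured were lower. By the same test 9.43% of all genes tested were higher and 14.8% lower. In bulk samples, fewer cells of a type and less RNA per cell cannot be told apart.

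The H3K27 demethylase gene kdm6bb was lower in 24h fins, and none of the other 8 measured members passed edgeR's test. The PRC2 core genes ezh2, eed, suz12a and suz12b had log2 fold changes (24h minus Control) between 0.07 and 0.21, tet2 had 0.19, and dnmt1, uhrf1 and tet3 had values between -0.41 and -0.31. Of all 19034 genes tested, 24.3% were called at an adjusted p under 0.05, 9.43% higher and 14.8% lower, against 1 of the 9 members (11.1%). All 9 members passed the filter on low counts. Their median log2 fold change was 0.07, and that of all genes tested was -0.0043. The groups did not overlap in 2 members, kdm6bb and eed, or 22.2%, while they did not overlap in 56.8% of all genes tested. The same count of 1 member lower and 0 higher came from DESeq2 and from limma-voom, and 1 member lower and 0 higher had an unadjusted p under 0.05 in edgeR.

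**Figure D1:**
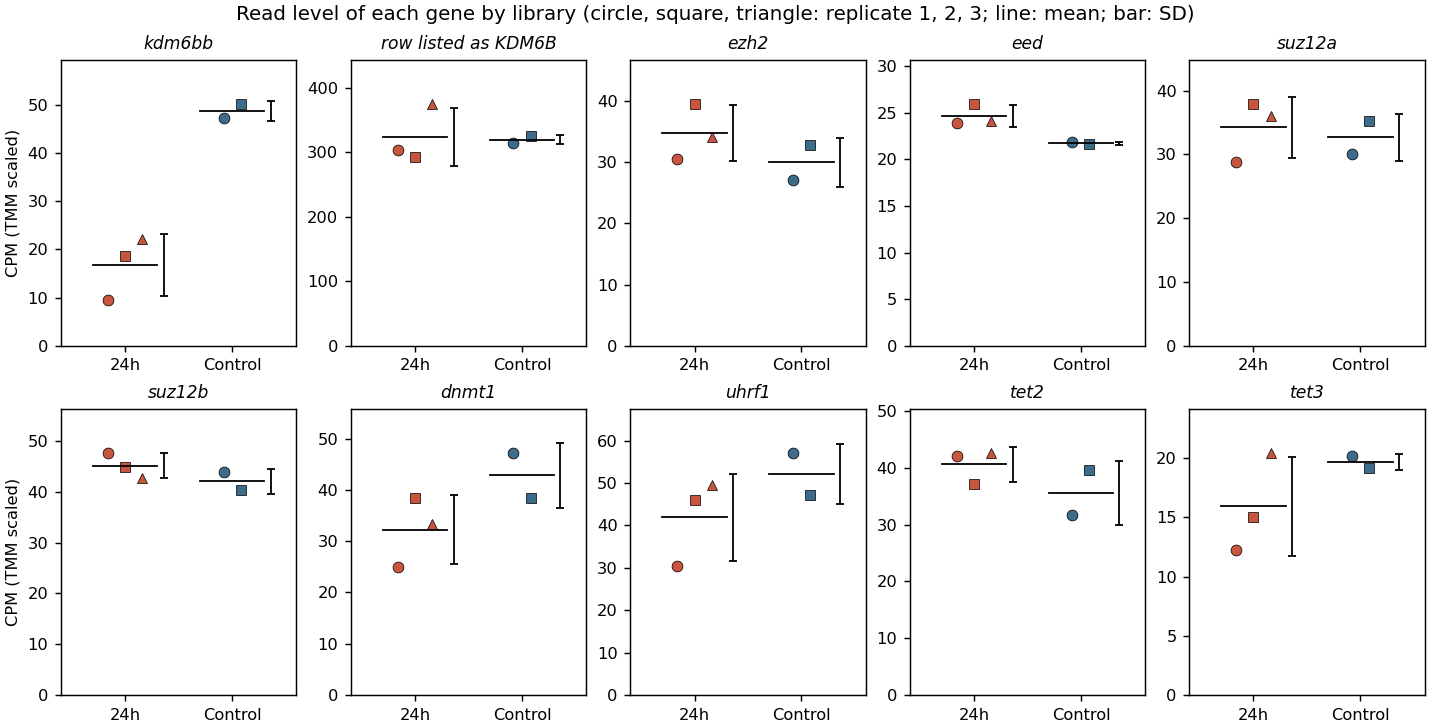
Level of the 9 measured members and of the row listed as KDM6B in every library, in TMM-scaled CPM on axes that start at 0, with the 24h group left of the Control group; symbols mark replicates, lines the group means and bars the SD (n = 3 and n = 2). The kdm6bb values are 9.59 to 22.1 CPM in 24h fins, against 47.3 and 50.2 CPM in Control fins, while the groups overlap in the other panels except eed.

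For kdm6bb the 24h libraries had 9.59, 18.6 and 22.1 CPM, and the Control libraries 47.3 and 50.2 CPM. Every 24h library lay below both Control libraries, and 24h replicate 1 was the lowest. The means were 16.8 ± 6.47 CPM (SD, n = 3) in 24h fins, against 48.8 ± 2.05 CPM (SD, n = 2) in Control fins, which gave -1.54 ± 0.31 on the log2 scale (SE; 95% interval -2.29 to -0.80), or 2.92-fold lower, with an adjusted p of 0.014 in edgeR. The counts behind it were 196, 439 and 341 reads in 24h fins, against 897 and 762 in Control fins. The call was lost without Control replicate 1 (log2 fold change -1.59, adjusted p = 0.078) and without Control replicate 2 (-1.49, adjusted p = 0.080), settings in which one Control library stands alone and is assumed to vary like the 24h libraries. Over 16 alternatives for the kdm6bb row itself the log2 fold change ran from -1.78 to -1.24.

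The kdm6bb model lies inside another gene model, which limits what its level means. The gene lies on chromosome 10 from 22754607 to 22791207 (GRCz10, plus strand), wholly inside the model of tmem88a, a gene of a small transmembrane protein on the same strand that runs from 22613718 to 22810208 in the tables. In the RefSeq list for a later assembly (GRCz12tu) the same pair of genes do not overlap. Of the exon reads of kdm6bb, 80.2% to 87.4% crossed an exon junction, and over all libraries 82.5% did. Among 2507 genes with exon lengths of 4000 to 8000 bases and at least 500 exon reads, the median was 38.2%, and 4.51% of them were at or above kdm6bb. No intron read was unique to kdm6bb in any library, and its intron reads numbered 2 to 5 per library. A high junction share and few intron reads are not particular to kdm6bb. In dnmt1, which no other model overlaps, 83.2% to 85.7% of exon reads crossed a junction, with 1 to 4 intron reads per library. In eed, also without overlap, the share was 92.1% to 95.5%. The 2507 genes were matched on exon length and not on exon number (23 exons listed for kdm6bb, 40 for dnmt1).

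The tmem88a row, in turn, held almost no exon reads: 98.4% to 99.8% of its reads were intron reads. Per library, 67.9% to 79.2% of its reads were unique. It had 1156, 1778 and 1165 reads in 24h fins, against 2762 and 2206 in Control fins. Its level was 56.5, 75.3 and 75.6 CPM in 24h fins, against 145.8 and 145.4 CPM in Control fins, or -1.07 ± 0.15 on the log2 scale (SE, adjusted p = 0.0028 in edgeR). Summed per library, a step added after both rows had been seen, the rows had 66.1, 93.9 and 97.8 CPM in 24h fins, against 193.1 and 195.7 CPM in Control fins. The sum was lower in 24h fins by a log2 fold change of -1.18 ± 0.18 (SE; 95% interval -1.60 to -0.76, adjusted p = 0.0035 in edgeR), without overlap of the groups. This sum takes in the reads of both rows that were not unique. Whether the tmem88a intron reads come from kdm6bb transcripts was not tested.

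**Figure D2:**
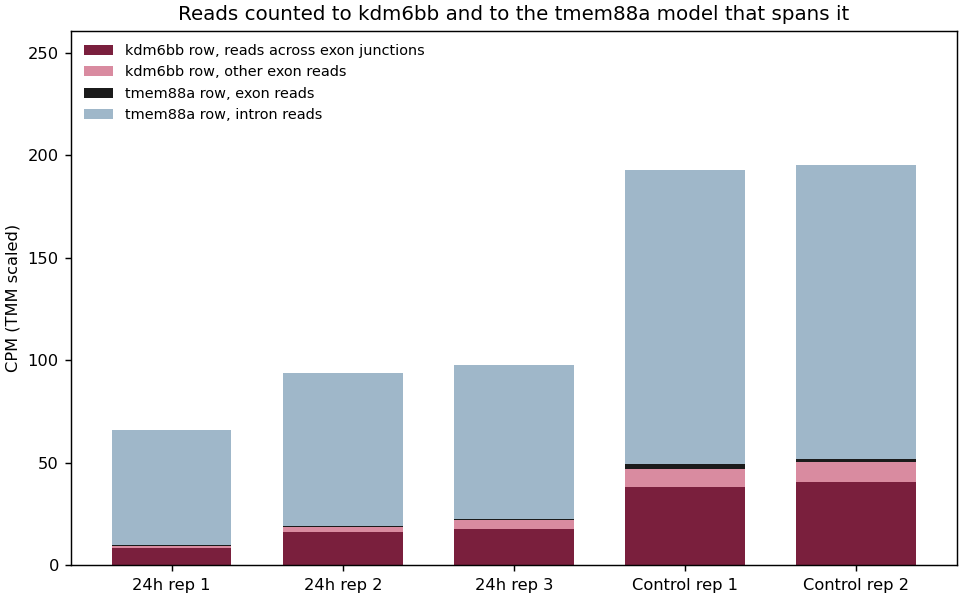
Reads counted to kdm6bb (across exon junctions, other exon reads) and to the tmem88a model that spans it (exon, intron), stacked for each library in TMM-scaled CPM; the few intron reads of kdm6bb are left out. Most of the stack is tmem88a intron reads, and all reads of both rows sum to 66.1 to 97.8 CPM in 24h fins, against 193.1 and 195.7 CPM in Control fins.

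A second Kdm6b-type row stood apart in level. The tables list a gene as KDM6B on chromosome 7 from 21498319 to 21511056 (plus strand), next to DNAH2 and near tmem88b; in the RefSeq list for GRCz12tu kdm6ba lies on chromosome 7 between dnah2 and tmem88b. The tables' own name is kept here. KDM6B had 304.2, 292.9 and 375.7 CPM in 24h fins, against 314.7 and 325.0 CPM in Control fins, with overlapping groups. Its log2 fold change was 0.02 ± 0.15 (SE; 95% interval -0.33 to 0.37, adjusted p = 0.94 in edgeR), so a change beyond 0.37 in either direction lay outside the interval. The log2 ratio of KDM6B to kdm6bb reads within a library, which no library scaling can move, was 4.35 ± 0.55 (SD, n = 3) in 24h fins, against 2.71 ± 0.028 (SD, n = 2) in Control fins. KDM6B held 96.9%, 94.0% and 94.4% of the reads of the pair in 24h fins, against 86.9% and 86.6% in Control fins. These shares rest on the kdm6bb row alone: with the tmem88a row summed in, KDM6B held 82.1%, 75.7% and 79.4% in 24h fins, against 62.0% and 62.4% in Control fins, and the difference in log2 ratio was 1.21 (exact permutation p = 0.1). The difference of 1.64 in log2 ratio, for the kdm6bb row alone, had the smallest exact permutation p that 3 against 2 libraries allow, 0.1 (two-sided, 10 arrangements; 0.32 adjusted over the 8 ratios tested). The other H3K27 demethylase genes did not pass the test: kdm6a had a log2 fold change of -0.23 and kdm6al one of 0.20, with adjusted p = 0.44 and 0.42 in edgeR, and the sign for kdm6a turned without Control replicate 1.

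None of the PRC2 core genes passed the test, and their 95% intervals lay between -0.31 and 0.59 on the log2 scale. The methyltransferase gene ezh2 (chromosome 24 from 17201102 to 17220037, plus strand) had 30.5, 39.5 and 34.1 CPM in 24h fins, against 27.1 and 32.8 CPM in Control fins. The groups overlapped, with a log2 fold change of 0.21 ± 0.16 (SE; 95% interval -0.17 to 0.59, adjusted p = 0.37 in edgeR). The gene eed (chromosome 1 from 27690 to 34330, plus strand), whose protein binds the methylated histone tail and stimulates Ezh2, had 23.9, 26.0 and 24.1 CPM in 24h fins, against 21.9 and 21.6 CPM in Control fins. Every 24h value lay above both Control values, but the log2 fold change of 0.18 ± 0.13 (SE; 95% interval -0.12 to 0.49) missed the threshold (adjusted p = 0.35 in edgeR). For each kdm6bb read there were 3.18, 2.13 and 1.54 ezh2 reads in 24h fins, against 0.57 and 0.65 in Control fins (exact permutation p = 0.1, 0.32 adjusted over the 8 ratios). These ratios are of reads, not per length, and use only the kdm6bb row. With the tmem88a row summed in they were 0.46, 0.42 and 0.35 in 24h fins, against 0.14 and 0.17 in Control fins, without overlap, so which gene had more reads at 24h depends on how the reads of both rows are counted.

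Both copies of the gene for the scaffold subunit Suz12 were present. The copy suz12a (chromosome 3 from 35719884 to 35735532, minus strand) had 28.8, 37.9 and 36.0 CPM in 24h fins, against 30.1 and 35.3 CPM in Control fins. The copy suz12b (chromosome 6 from 22060611 to 22073224, plus strand) had 47.7, 44.96 and 42.7 CPM in 24h fins, against 43.8 and 40.3 CPM in Control fins. Both pairs of groups overlapped, with log2 fold changes of 0.07 ± 0.16 and 0.10 ± 0.12 (SE; 95% intervals -0.31 to 0.45 and -0.18 to 0.39). The sign for suz12a turned without 24h replicate 2 and without Control replicate 1. The ratio of suz12a to suz12b reads was 0.60, 0.84 and 0.84 in 24h fins, against 0.69 and 0.88 in Control fins (exact permutation p = 0.8, 0.9 adjusted over the 8 ratios).

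**Figure D3:**
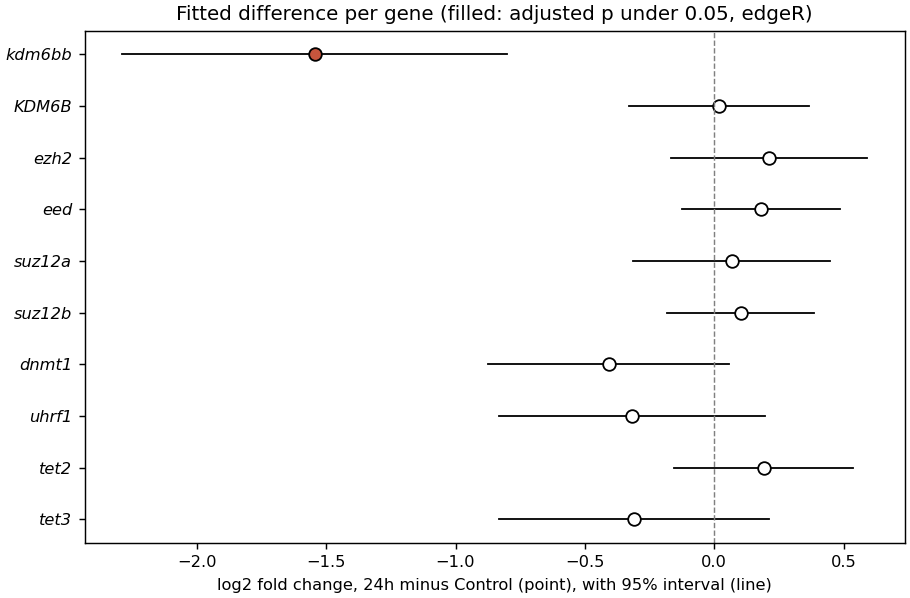
Log2 fold change of each gene, 24h minus Control (points), with its 95% interval (lines); the filled point has an adjusted p under 0.05 in edgeR. The kdm6bb interval (-2.29 to -0.80) lies wholly below 0, and the intervals of the other 8 members and of KDM6B cross 0.

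Other PRC2 genes moved both ways. Of 8 tested, rbbp4 and jarid2b were higher, phf19 was lower, and 5 did not pass (37.5% called, against 24.3% of all genes tested). The histone-binding subunit gene rbbp4 had a log2 fold change of 0.43 ± 0.12 (SE), and jarid2b, a cofactor that helps to bring PRC2 to its targets, had 23.3 ± 6.31 CPM (SD, n = 3) in 24h fins, against 12.6 ± 1.09 CPM (SD, n = 2) in Control fins (0.88 ± 0.25, SE). Of the reads of jarid2b, 35.4% were intron reads, and its call was lost in 6 of 16 alternatives, limma-voom among them (adjusted p = 0.060), which called 1 gene higher and 1 lower in the list. The Polycomb-like gene phf19 had 7.72 ± 1.096 CPM (SD, n = 3) in 24h fins, against 16.3 ± 3.04 CPM (SD, n = 2) in Control fins (-1.08 ± 0.21, SE, adjusted p = 0.0094 in edgeR). The Ezh2 relative ezh1 was at -0.39 ± 0.21 (SE, adjusted p = 0.22). Within a library the ezh2 to ezh1 ratio was 2.65, 2.34 and 1.92 in 24h fins, against 1.34 and 1.65 in Control fins, without overlap (exact permutation p = 0.2, 0.32 adjusted over the 8 ratios).

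Polycomb repressive complex 1 (PRC1) reads the H3K27 mark and adds ubiquitin to histone H2A. Of 25 PRC1 genes tested, 4 were higher, 2 lower and 19 did not pass (24.0% called, against 24.3% of all genes tested). Their median log2 fold change was -0.08. The higher ones were pcgf1 (1.31 ± 0.32, SE), rybpb (0.89 ± 0.20, SE), phc2a (0.57 ± 0.14, SE) and pcgf6 (0.70 ± 0.21, SE); pcgf1, rybpb and pcgf6 belong, in mammals, to PRC1 forms that lack a Cbx reader. Of the reads of pcgf1, 27.8% were intron reads, and its call was lost on exon reads (adjusted p = 0.061 in edgeR) and in 8 of 16 alternatives in all. The lower ones were cbx7a, a Cbx reader gene with 16.4 ± 3.22 CPM (SD, n = 3) in 24h fins, against 41.7 ± 1.103 CPM (SD, n = 2) in Control fins (-1.34 ± 0.18, SE, adjusted p = 0.0021 in edgeR), and scmh1 (-0.91 ± 0.21, SE). The catalytic subunit gene rnf2 was at 0.06 ± 0.12 (SE). Of 5 genes for the removal of H2A ubiquitin, asxl2 was higher (0.95 ± 0.21, SE) and 4 did not pass. Of 15 genes of the Kdm6a and Kmt2 complexes, which work against Polycomb, wdr5 (0.43) and kmt2ba_2 (0.42) were higher and kmt2a (-0.60) lower. The gene wdr5 overlaps brd3a on the opposite strand and kmt2ba_2 overlaps kmt2ba_1 on the opposite strand. The call of kmt2ba_2 was lost in 10 of 16 alternatives, among them exon reads and no low-count filter (adjusted p = 0.052 and 0.060 in edgeR). Of the reads of pcgf6, 75.3% were unique, and a neighbouring model on its strand overlaps it.

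The pair of genes that maintain DNA methylation did not pass the test, and each spanned a wider range over the 24h libraries than the distance between the group means. The maintenance methyltransferase gene dnmt1 (chromosome 3 from 54336611 to 54352679, minus strand) had 24.9, 38.4 and 33.4 CPM in 24h fins, against 47.2 and 38.4 CPM in Control fins. The highest 24h library lay just above the lower Control library, at 38.40 against 38.37 CPM. Its log2 fold change was -0.41 ± 0.20 (SE; 95% interval -0.88 to 0.06, adjusted p = 0.18 in edgeR). The gene uhrf1 (chromosome 22 from 3955795 to 3986463, minus strand), whose protein recognises hemimethylated DNA behind the replication fork, had 30.3, 45.9 and 49.5 CPM in 24h fins, against 57.2 and 47.1 CPM in Control fins. The groups overlapped (-0.32 ± 0.22, SE; 95% interval -0.83 to 0.20, adjusted p = 0.33 in edgeR). In both genes 24h replicate 1 was the lowest library, and without it the log2 fold changes were -0.26 and -0.14. The ratio of uhrf1 to dnmt1 reads ran from 1.19 to 1.48 in 24h fins, against 1.21 and 1.23 in Control fins (exact permutation p = 0.9, 0.9 adjusted over the 8 ratios).

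Both genes are known to be used in dividing cells, and 24h replicate 1 was also low in genes of DNA replication, though not only there. It was the lowest of the 5 libraries in 5 of the 9 members (kdm6bb, suz12a, dnmt1, uhrf1 and tet3), in 17 of 27 DNA replication genes and in 6 of 14 mitosis genes, against 24.0% of all genes tested. The same library was lowest in 5 of 6 de novo methyltransferase genes and in 8 of 14 methylation maintenance and reader genes. Over the 7 chromatin lists beside the members it was lowest in 28 of 88. The share over all genes is not matched for direction, and 23 of the 27 replication genes had a negative log2 fold change. The part of 24h replicate 1 in the values of dnmt1 and uhrf1 was not tested. The replication clamp gene pcna had 179.5, 209.4 and 173.4 CPM in 24h fins, against 239.4 and 173.6 CPM in Control fins, and did not pass (-0.14 ± 0.17, SE, adjusted p = 0.58 in edgeR). Per library, dnmt1 had 0.14, 0.18 and 0.19 reads for each pcna read in 24h fins, against 0.20 and 0.22 in Control fins, without overlap (exact permutation p = 0.2, 0.32 adjusted over the 8 ratios). The nearest values lay close together, at 0.193 in 24h replicate 3 and 0.197 in Control replicate 1. For ezh2 the reads per pcna read were 0.17, 0.19 and 0.20 in 24h fins, against 0.11 and 0.19 in Control fins, with overlap (exact permutation p = 0.3, 0.4 adjusted).

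Of the 27 DNA replication genes, 3 were lower, mcm4 (-0.86), mcm6 (-0.75) and rrm2_1 (-0.92), and 2 were higher. That is 18.5% called, against 24.3% of all genes tested, and the median log2 fold change was -0.33. Of the reads of rrm2_1, 40.9% were unique, and models on the same strand overlap rrm2_1 and mcm6. Another row of the same gene name, rrm2_2, had the opposite sign (0.72), overlapping groups and no call (adjusted p = 0.39 in edgeR). The higher ones were gmnn (1.20) and cdc6 (0.84), which hold 94.2% and 51.9% intron reads and overlap other gene models on the opposite strand; on exon reads alone gmnn was at -0.024 and neither passed (adjusted p = 0.95 and 0.12 in edgeR). Of 14 mitosis genes 0 passed edgeR, DESeq2 or limma-voom, and 1 had an unadjusted p under 0.05 in edgeR. Among them mki67 was at -0.21 ± 0.14 and cdk1 at -0.25 ± 0.13 (SE), and the replication gene mcm5 was at -0.56 ± 0.23 (SE). The summed level of 6 markers of dividing cells was 461.9 to 564.2 CPM in 24h fins, against 518.7 and 659.2 CPM in Control fins.

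In the list of methylation maintenance genes and readers of methylated DNA, 5 of 14 tested were lower and 1 higher (42.9% called, against 24.3% of all genes). Lower calls also outnumbered higher ones over all genes tested, 14.8% against 9.43%. The lower genes of the list were mbd3b (-1.41 ± 0.20, SE), zbtb4 (-0.95), zbtb38 (-1.03), cdca7a (-1.10) and cdca7b (-0.91). The Mbd and Zbtb genes encode methyl-binding proteins or their relatives, and Cdca7 proteins work with the remodeller Hells, whose gene hells was at -0.57 ± 0.24 (SE, adjusted p = 0.12 in edgeR). The gene mbd3b had 6.02 ± 0.97 CPM (SD, n = 3) in 24h fins, against 16.0 ± 1.81 CPM (SD, n = 2) in Control fins. The methyl-binding gene mbd2 was the higher one, with 70.0 ± 11.1 CPM (SD, n = 3) in 24h fins, against 36.2 ± 4.47 CPM (SD, n = 2) in Control fins (0.95 ± 0.17, SE, adjusted p = 0.0079).

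Of the 6 de novo methyltransferase genes, which set new DNA methylation, dnmt3ab (-0.77 ± 0.21, SE) and dnmt3bb.1 (-0.88 ± 0.21, SE) were lower and none higher in edgeR, where 1 higher and 4 lower had an unadjusted p under 0.05; DESeq2 called 1 higher and 2 lower and limma-voom 0 and 2. In edgeR 33.3% of these genes were called, against 24.3% of all genes tested. The level of dnmt3bb.1 was 15.2 ± 3.45 CPM (SD, n = 3) in 24h fins, against 28.0 ± 3.91 CPM (SD, n = 2) in Control fins. The others were dnmt3aa (-0.67), dnmt3ba (-0.43), dnmt3bb.2 (-0.08) and dnmt3bb.3 (0.87, adjusted p = 0.068), of which the last pair overlap each other on the same strand. Models on the same strand also overlap dnmt3ab and dnmt3bb.1, and the dnmt3ab call was lost in 7 of 16 alternatives. The sign for dnmt3bb.2 turned without 24h replicate 1.

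The Tet genes did not pass the test. The gene tet2 (chromosome 1 from 25662646 to 25693594, plus strand) had 42.2, 37.1 and 42.7 CPM in 24h fins, against 31.6 and 39.6 CPM in Control fins, with overlapping groups (0.19 ± 0.15, SE; 95% interval -0.16 to 0.54, adjusted p = 0.38 in edgeR). The gene tet3 (chromosome 5 from 13809699 to 13826742, minus strand) had 12.3, 15.0 and 20.4 CPM in 24h fins, against 20.2 and 19.2 CPM in Control fins. Its 24h libraries spread on both sides of the Control libraries (-0.31 ± 0.22, SE; 95% interval -0.83 to 0.21, adjusted p = 0.35 in edgeR). Within a library the tet2 to tet3 ratio was 3.43, 2.47 and 2.09 in 24h fins, against 1.57 and 2.07 in Control fins, and the groups did not overlap (exact permutation p = 0.2, 0.32 adjusted over the 8 ratios). The nearest values were 2.09 and 2.07, and 27.1% to 44.3% of the tet3 reads were intron reads. On exon reads alone the groups overlap: tet2 and tet3 had 629 and 182 in 24h replicate 3, against 585 and 162 in Control replicate 2. The relative tet1 was at 8.96 ± 1.66 CPM (SD, n = 3) in 24h fins, against 13.4 ± 0.56 CPM (SD, n = 2) in Control fins (-0.58 ± 0.21, SE, adjusted p = 0.080).

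Of 15 genes listed as partners in DNA demethylation, with tet1 itself among them, 3 were higher and 2 lower (33.3% called, against 24.3% of all genes tested). The glycosylase genes tdg.1 (0.50 ± 0.13, SE) and neil1 (0.75 ± 0.15, SE), whose products cut out oxidised or damaged bases, were higher, as was gadd45ab (0.80 ± 0.16, SE), which overlaps sec16b on the opposite strand. The lower ones were gadd45ba (-0.57 ± 0.17, SE) and apobec2a (-4.40 ± 0.51, SE). For apobec2a there were 1, 2 and 3 reads in 24h fins, against 42 and 36 in Control fins, of which 92.9% were intron reads and 63.1% unique, and its call was lost with limma on TPM or RPKM.

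**Figure D4:**
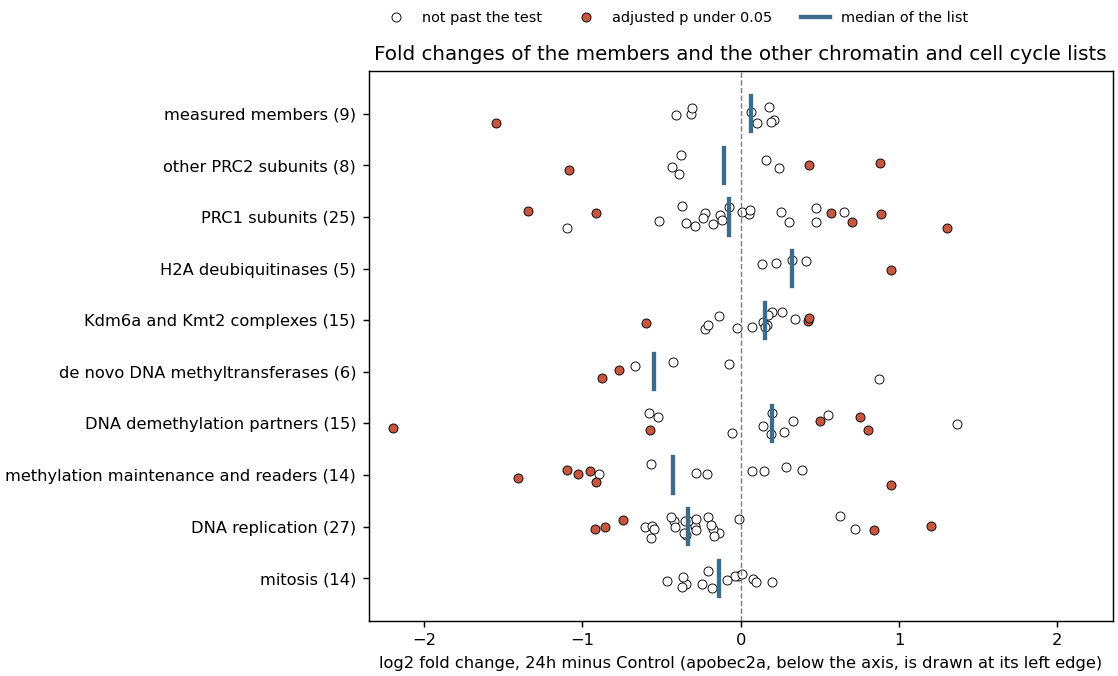
Log2 fold change, 24h minus Control, of every tested gene of each list (points, spread vertically so that they can be seen; filled where the adjusted p is under 0.05 in edgeR), with the median of each list (line) and the number tested in brackets. The median is 0.07 for the measured members, -0.55 for the de novo DNA methyltransferases, -0.43 for the methylation maintenance and reader genes and -0.33 for DNA replication.

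Over the 7 chromatin lists beside the members, 13 of 88 genes tested were higher and 13 lower (29.5% called, against 24.3% of all genes), with a median log2 fold change of 0.07. Of the 31 genes named from the lists, cbx7a and mbd3b kept the call in all alternatives. Without Control replicate 1 the call was lost for 24 of the 31 and without Control replicate 2 for 21, and without 24h replicate 1, 2 or 3 for 9, 9 and 8.

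Per exon length, the members spanned mean levels of 2.77 to 12.9 RPKM in 24h fins, and KDM6B lay above them. On the RPKM scale (exon reads divided by exon length and by TMM-scaled library size), KDM6B was at 45.1 ± 5.91 (SD, n = 3) in 24h fins, against 44.1 ± 0.87 (SD, n = 2) in Control fins. Among the members the order in 24h fins was eed (12.9 ± 0.49 RPKM), suz12b (10.2 ± 0.56), ezh2 (8.52 ± 1.15), uhrf1 (7.90 ± 1.79), suz12a (7.04 ± 1.02), dnmt1 (6.39 ± 1.35), tet2 (4.47 ± 0.32), tet3 (2.85 ± 0.44) and kdm6bb (2.77 ± 1.07; SD, n = 3). From ezh2 to dnmt1 each gene differed from the next by less than the SD of either, as did tet3 and kdm6bb. In the Control libraries kdm6bb was at 8.11 ± 0.35 RPKM (SD, n = 2), the sixth of the 10 rows with KDM6B counted, while it was the last in 24h libraries. The kdm6bb level takes in only the reads given to its own row.

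**Figure D5:**
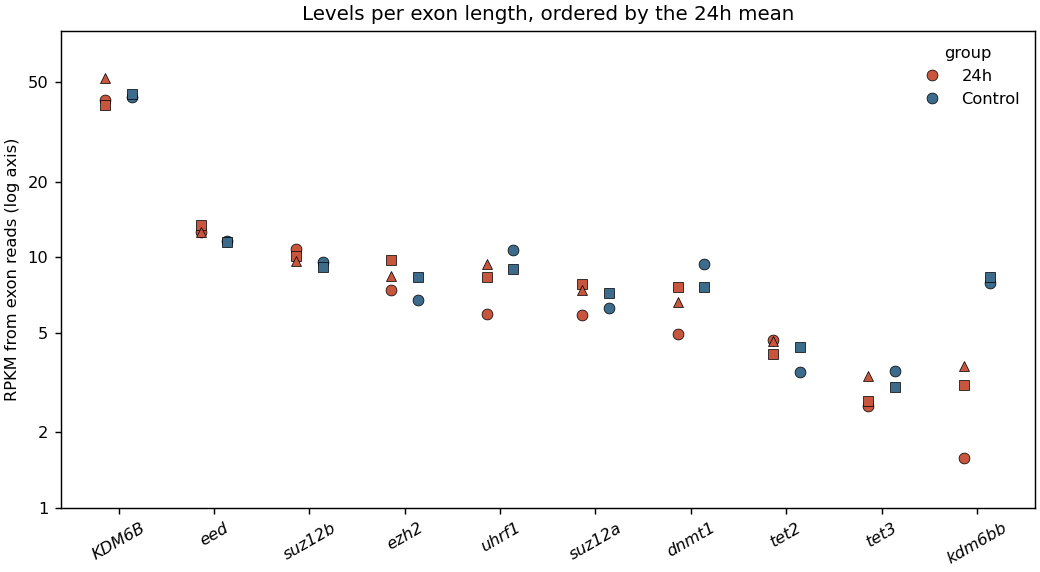
Level per exon length of each gene in every library, in RPKM from exon reads on a log axis, with the 24h libraries left of the Control libraries and the genes ordered by their 24h mean. KDM6B is the highest at 40.7 to 51.8 RPKM, and kdm6bb has 1.58 to 3.66 RPKM in 24h fins, against 7.86 and 8.36 RPKM in Control fins.

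Exon and intron reads were also tested apart. On exon reads 1 of 9 members, kdm6bb, was called (-1.55 ± 0.31, SE, adjusted p = 0.014 in edgeR), against 25.8% of the genes tested on exon reads (10.1% higher and 15.8% lower). On intron reads 7 members could be tested and 0 were called by edgeR, against 6.93% of the genes tested (2.16% higher and 4.77% lower), and 1 had an unadjusted p under 0.05: ezh2, at 0.73 ± 0.30 (SE, adjusted p = 0.20), from 51, 69 and 37 intron reads in 24h fins, against 31 and 22 in Control fins. The share of intron reads was 0.20% to 0.69% in dnmt1 and 27.1% to 44.3% in tet3. At least 99.7% of the reads were unique in each library for the 8 members other than kdm6bb, for which 89.6% to 93.9% were.

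Of the 9204 other genes at a mean log2 CPM of 3 or more with a gene symbol, bnc2 had the pattern most like kdm6bb over the 5 libraries, by the smallest root mean square difference of centred log2 CPM (0.067). The gene bnc2 encodes a zinc finger protein known in zebrafish for the adult pigment pattern. It had 13.0, 22.7 and 27.4 CPM in 24h fins, against 64.8 and 66.5 CPM in Control fins (log2 fold change -1.65). As bnc2 was picked for its likeness to kdm6bb, its difference between the groups is a description and not a separate result. Marker genes of several cell types moved beside kdm6bb. The counts below stand against 9.43% of all genes tested called higher and 14.8% called lower, and some lists hold few genes. Osteoblast markers summed to 131 to 178 CPM in 24h fins, against 10986 and 11224 CPM in Control fins, with 4 of 5 lower. The summed level of 5 fibroblast markers was 3326 to 4467 CPM in 24h fins, against 21464 and 21597 CPM in Control fins, with 3 of 3 tested lower. Pigment and vessel cells showed the same direction. The level of 3 melanophore markers was 1.03 to 2.33 CPM in 24h fins, against 177.7 and 193.6 CPM in Control fins, and that of 5 endothelial markers 19.4 to 22.1 CPM in 24h fins, against 116.7 and 121.2 CPM in Control fins. Macrophage markers summed to 174.7 to 228.3 CPM in 24h fins, against 318.5 and 331.2 CPM in Control fins, with 4 of 6 lower. Of the other blood cell lists, 2 of 4 lymphocyte and 1 of 2 red cell markers tested were lower in edgeR, and rag1 was at 0 in all libraries. Neutrophil markers summed to 5.06 to 16.1 CPM in 24h fins, against 19.6 and 21.4 CPM in Control fins, with 0 of 2 tested called in edgeR. Blastema markers went the other way, at 626 to 958 CPM in 24h fins, against 239 and 261 CPM in Control fins. The part of these cell types in the kdm6bb difference was not tested.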

How the data were processed

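RNA was measured in 5 libraries of zebrafish caudal fin tissue, 3 labelled 24h and 2 labelled Control, made with a stranded mRNA kit after phenol extraction per the labels' protocols. The genome build was GRCz10 per the submitters' processing notes; for the aligner, the counting program and the use of strand the sources used here name nothing. Each deposited table holds whole-number read counts per gene (total, unique, exon, exon-exon and intron reads) and the authors' TPM and RPKM for 31540 genes. The library size behind the authors' RPKM, worked back from exon reads and lengths, was 1.00 times the gene reads in 24h replicate 1, and 1.0966 to 1.1003 times in the other libraries.

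Total gene reads of all 5 libraries were tested with edgeR 4.0.16 (R 4.3.3): TMM scaling, filterByExpr, robust quasi-likelihood F test and Benjamini-Hochberg adjustment over the 19034 genes left, at 0.05. Standard errors (SE) were approximated by dividing each absolute log2 fold change by the square root of its F, and 95% intervals use the test's degrees of freedom. CPM were scaled with the TMM factors. The code was tested on simulated data. The labels give no batch, animal or replicate number; replicates were numbered here within each group only to name them, so equal numbers do not pair libraries and no covariate was used, and p-values reflect only how these samples spread, and that spread may be technical. Ratios of 2 genes within a library were compared with a two-sided exact permutation test over the 5 libraries.

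Named beside the members were, from each list, called genes whose groups do not overlap, at most 5 in each direction by p, and some fixed genes. The members and lists were chosen with earlier results of these data known. The row listed as KDM6B, tmem88a and the sum of the kdm6bb and tmem88a rows, also as a base of ratios, were added after the tables were seen. Alternatives were RLE size factors, DESeq2 1.42.0, limma-voom (limma 3.58.1), other low-count filters, unique or exon reads, leaving out the 20 most abundant genes or 1 library, and limma on log2(TPM + 1), log2(RPKM + 1) and log2(RPKM + 0.1). The planned comparison of promoter and protein sequences was not made.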

Additional observations from a re-analysis of the deposited data

How the results depend on the processing

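No paired analysis was possible because the labels number no replicates, and the numbers used here only name the libraries within a group. The count of 1 member lower held in the 11 alternatives that kept all libraries, and ran from 0 to 1 when 1 library was left out, with 0 without either Control library. Among genes of the other chromatin lists, 13 higher and 13 lower became 5 and 6 with limma on log2(TPM + 1), and 7 were lower with limma on log2(RPKM + 1) and on log2(RPKM + 0.1); leaving out 1 library gave 1 to 10 higher and 4 to 13 lower. In the replication and mitosis lists 0 were higher on exon reads and with limma on TPM or on RPKM with either pseudocount, and leaving out 1 library gave 1 to 2 higher and 0 to 4 lower. Over all genes, 1794 higher and 2824 lower became 418 to 1740 higher and 1372 to 2953 lower without 1 library. The cause of these shifts was not tested; with a Control library left out, 1 Control library is assumed to vary like the 24h libraries. With 1 library left out, the log2 fold change ran from -0.045 to 0.20 for suz12a, from -0.096 to 0.089 for KDM6B, from -0.34 to 0.11 for pcna, from -0.45 to 0.064 for kdm6a and from -0.32 to 0.25 for dnmt3bb.2. Without a sign change, it ran from 0.079 to 0.37 for ezh2, from 0.034 to 0.37 for tet2, from -0.52 to -0.16 for tet3, from -0.55 to -0.25 for dnmt1 and from -0.45 to -0.14 for uhrf1. With limma on TPM, KDM6B was at -0.013 and gmnn at -0.063, and gmnn was at -0.024 on exon reads. Without 1 library, the difference in log2 ratio ran from -0.22 to 0.13 for suz12a to suz12b, from -0.034 to 0.70 for ezh2 to pcna and from -0.017 to 0.14 for uhrf1 to dnmt1, so these have no stable sign, while the ratios to kdm6bb ran from 1.32 to 1.82 for KDM6B and from 1.56 to 2.09 for ezh2. With 3 against 2 libraries, the exact test cannot reach 0.05.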
